A study of Mus musculus with 6 samples.

Results

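Prostaglandins and leukotrienes are lipid mediators made from arachidonic acid, and 10 genes of their synthesis and sensing were followed here in mouse macrophages without E-FABP and in wild-type macrophages. The genes were taken by symbol: Pla2g4a for the shared first step, Ptgs1, Ptgs2, Ptges, Ptger2 and Ptger4 for the prostaglandin branch, and Alox5, Alox5ap, Lta4h and Ltc4s for the leukotriene branch. Of these, 9 genes were measured by 15 of the 45037 probe sets, 8 on the prostaglandin side, 6 on the leukotriene side and 1 for Pla2g4a. Ptgs1, which encodes the constitutive cyclooxygenase, was not analysed here.

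The data came from 3 arrays of E-FABP knockout cells and 3 arrays of wild-type cells. E-FABP is the epidermal fatty-acid-binding protein, a cytosolic carrier of fatty acids encoded by Fabp5. All mice are labelled C57BL/6, were 6 to 8 weeks old and had received no treatment, and the labels do not describe the knockout allele. Bone marrow cells of both genotypes were grown with the growth factor GM-CSF at 20 ng/ml for 7 days, and then shared medium with E0771 mouse breast cancer cells, held in an insert, for 18 h. Every sample had been exposed to tumour cells, so the comparison is between genotypes under that exposure. By their labels the replicates are biological, but whether each culture came from its own mouse is unstated. The p-values therefore measure the spread between these samples, which may be technical.

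In this pathway a cytosolic phospholipase, the product of Pla2g4a, frees arachidonic acid from membranes. Cyclooxygenases (Ptgs1 and Ptgs2) turn it into prostaglandin H2, and the microsomal synthase Ptges turns that into prostaglandin E2, which macrophages sense through the receptors EP2 (Ptger2) and EP4 (Ptger4). On the other branch, 5-lipoxygenase (Alox5), with its activating protein (Alox5ap), makes leukotriene A4, which Lta4h converts into leukotriene B4, an attractant of neutrophils, and Ltc4s into leukotriene C4, the first of the cysteinyl leukotrienes. Ptgs2 and Ptges are known to be induced together in inflamed macrophages.

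Ptges fell in knockout cells and was the sole member lower at a limma adjusted p under 0.05, whereas Ltc4s and Ptger4 rose. Among the 9 genes, each represented by its brightest probe set, 2 were higher, 1 was lower and 6 did not pass. Over all 18193 genes on the arrays, 2.85% were higher and 2.05% were lower by this rule. Counted by probe sets, 3 of 15 were higher (Ptger4 with both of its probe sets and Ltc4s) and 3 of 15 were lower (all 3 of Ptges), where 2.06% of all probe sets were higher and 1.7% lower. With values below the 20th percentile of all values (4.07) raised to it, none of the 3 genes was called, with limma adjusted p of 0.153 for Ptges, 0.119 for Ltc4s and 0.11 for Ptger4. All values of these 3 genes lay above 4.07, so their differences were unchanged by this floor. The 3 knockout values lay wholly above the 3 wild-type values for 5 of the 9 genes and wholly below them for Ptges, and groups without overlap occurred in 31.9% of all genes. The median log2 difference (knockout minus wild type) was -0.06 over the 4 prostaglandin genes measured, 0.26 over the 4 leukotriene genes and 0.01 over all genes.

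The start regions of the 3 called members and of Ptgs2 are shown, the members that passed the test and the enzyme one step before Ptges. Each is the 300-base window of RefSeq on GRCm38.p6, from 250 bases before the annotated start to 50 bases after it, 5′ to 3′ on the gene's strand. A window was found for 9 of the 10 members. Capitals mark matches, on either strand, to the motifs searched: the GC box GGGCGG, the cyclic-AMP response half-site TGACG, the C/EBP palindrome TTGCGCAA, the E-box CACGTG, the core of the interferon-stimulated response element GAAANNGAA and the ETS core GGAAGT.
Ptges, chr2:30903248-30903547, minus strand: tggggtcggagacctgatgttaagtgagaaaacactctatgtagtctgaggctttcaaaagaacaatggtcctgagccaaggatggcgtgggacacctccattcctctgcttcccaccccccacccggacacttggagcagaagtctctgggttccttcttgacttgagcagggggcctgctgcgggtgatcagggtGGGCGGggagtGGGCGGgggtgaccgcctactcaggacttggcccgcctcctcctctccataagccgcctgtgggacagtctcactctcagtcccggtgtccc
Ptgs2, chr1:150099781-150100080, plus strand: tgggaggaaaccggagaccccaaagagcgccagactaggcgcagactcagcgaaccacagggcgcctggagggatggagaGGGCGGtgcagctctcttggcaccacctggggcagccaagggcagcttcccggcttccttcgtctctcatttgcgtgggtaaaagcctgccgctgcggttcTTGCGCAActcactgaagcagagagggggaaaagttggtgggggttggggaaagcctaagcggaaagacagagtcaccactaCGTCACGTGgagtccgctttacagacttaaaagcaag
Ltc4s, chr11:50238483-50238782, minus strand: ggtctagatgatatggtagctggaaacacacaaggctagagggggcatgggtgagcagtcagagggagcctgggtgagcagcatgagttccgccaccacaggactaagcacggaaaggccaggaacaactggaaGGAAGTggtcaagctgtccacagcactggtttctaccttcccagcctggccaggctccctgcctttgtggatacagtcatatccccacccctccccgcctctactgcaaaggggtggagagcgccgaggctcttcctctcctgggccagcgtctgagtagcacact
Ptger4, chr15:5244138-5244437, minus strand: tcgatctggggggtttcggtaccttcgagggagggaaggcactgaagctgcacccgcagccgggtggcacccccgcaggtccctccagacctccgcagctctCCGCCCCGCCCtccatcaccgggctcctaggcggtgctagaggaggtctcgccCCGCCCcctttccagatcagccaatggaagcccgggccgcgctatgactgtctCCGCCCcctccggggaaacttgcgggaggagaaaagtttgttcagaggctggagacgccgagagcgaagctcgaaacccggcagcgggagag

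The Ptges window held 2 GC boxes, 53 and 42 bases before the start, and no other motif of the 6. The Ptgs2 window held 1 GC box, the C/EBP palindrome 69 bases before the start, and a half-site (read on the opposite strand) whose last bases overlap an E-box just after the start. The Ptger4 window held 4 GC boxes on the opposite strand, 2 of them overlapping by a base, and that of Ltc4s held none and had 1 ETS core. Among 32817 windows of the same length, 35.6% had a GC box, 20.8% the half-site, 0.183% the C/EBP palindrome, 7.15% the E-box, 8.55% the response element core and 23.8% the ETS core. Ptges, which fell, and Ptger4, which rose, both had GC boxes. These matches describe the letters of the windows only.

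**Figure D1:**
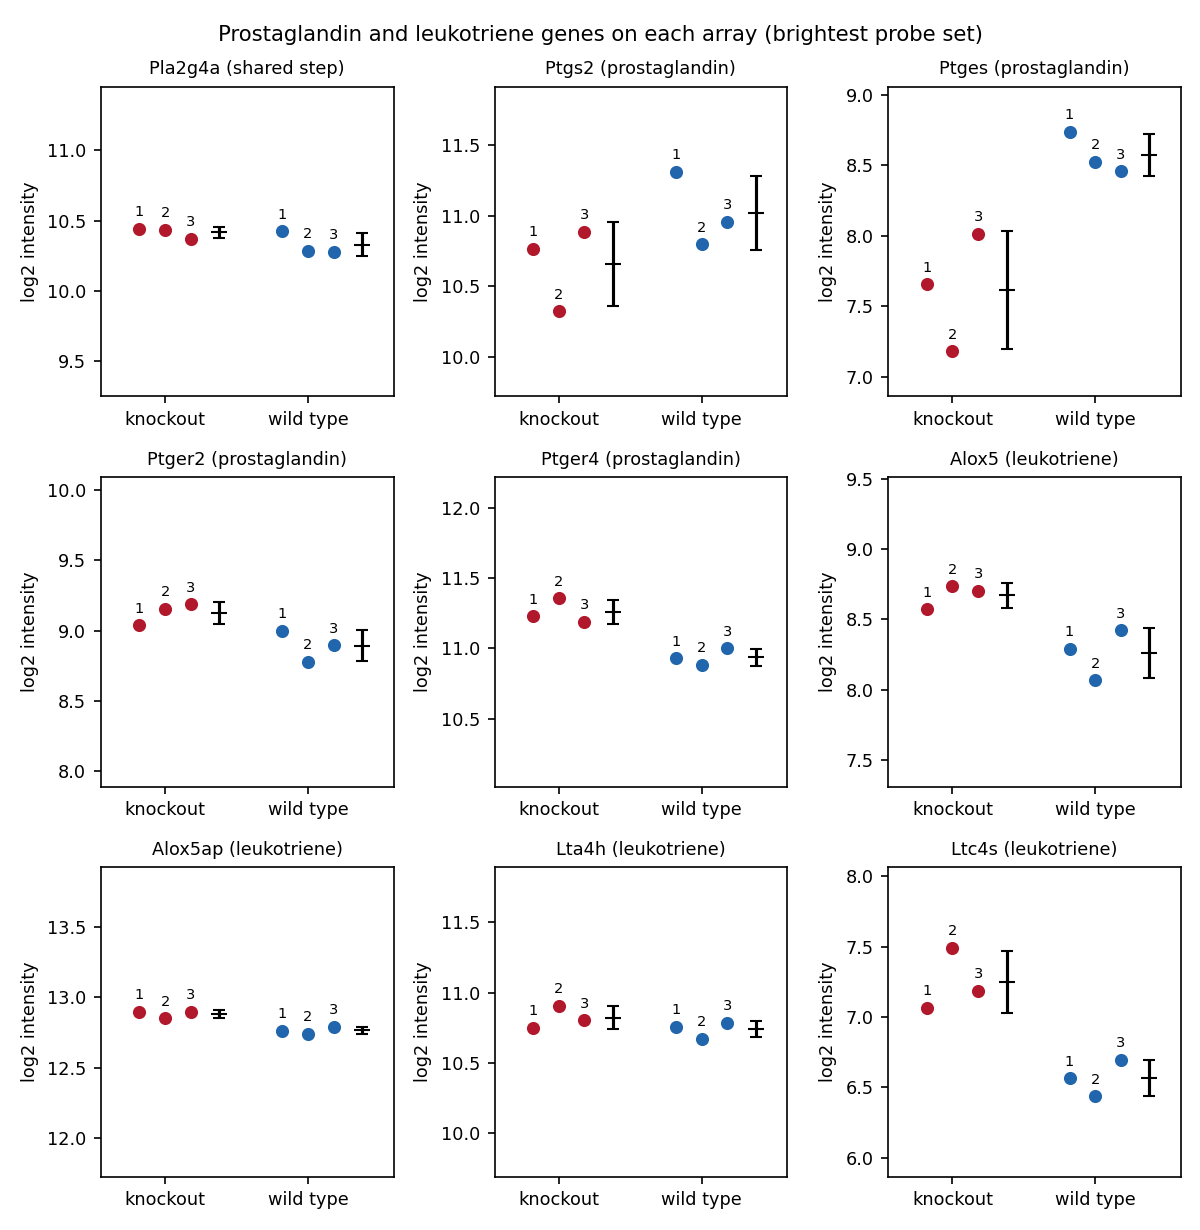
Log2 intensity of the 9 genes on each array (brightest probe set), knockout at left and wild type at right of each panel, all panels spanning the same range of log2 units; numbers are replicates, and bars show mean ± SD (n = 3). Ptges lies lower in all 3 knockout samples, Ltc4s and Ptger4 lie higher, and Pla2g4a and Lta4h overlap between genotypes.

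Pla2g4a, the phospholipase that supplies both branches, did not differ beyond its error. Its log2 intensity was 10.44, 10.44 and 10.37 in knockout replicates 1, 2 and 3, against 10.42, 10.29 and 10.28 in wild-type replicates 1, 2 and 3. The groups overlapped, with a difference of 0.09 (95% interval -0.07 to 0.24, limma adjusted p = 0.537).

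At the cyclooxygenase step, Ptgs2, the inducible enzyme, was lower on average in knockout cells without passing the test. Its brighter probe set read 10.77, 10.32 and 10.89 in knockout replicates 1, 2 and 3, against 11.31, 10.80 and 10.96 in wild-type replicates 1, 2 and 3. Knockout replicate 2 was the lowest array and wild-type replicate 1 the highest, and the genotypes overlapped. The difference was -0.36 (SE 0.16, 95% interval -0.73 to 0.01, limma adjusted p = 0.256). The dimmer probe set lay -0.39 from wild type (limma adjusted p = 0.319), with the same arrays lowest and highest.

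Ptges, the terminal synthase of prostaglandin E2, fell on all 3 of its probe sets. The brightest read 7.66, 7.18 and 8.02 in knockout replicates 1, 2 and 3, against 8.74, 8.53 and 8.46 in wild-type replicates 1, 2 and 3. Every knockout value lay below every wild-type value, and the knockout samples were the more scattered, with an SD of 0.42 against 0.15 (n = 3 each). The mean was 7.62 ± 0.42 in knockout and 8.57 ± 0.15 in wild type (SD, n = 3 each), a difference of -0.96 (SE 0.18) or 1.94-fold (limma adjusted p = 0.0284). The second probe set read 6.84, 6.70 and 7.22 in knockout replicates 1, 2 and 3, against 7.94, 7.53 and 7.60 in wild-type replicates 1, 2 and 3, a difference of -0.77 (SE 0.15, limma adjusted p = 0.0284). The dimmest of them gave -0.52 (SE 0.11, limma adjusted p = 0.0381), so all 3 estimates were negative. Ptges kept its call without knockout replicate 3 (limma adjusted p = 0.0102) and lost it without any of the other arrays: leaving out knockout replicate 1 gave an adjusted p of 0.0921 and replicate 2 one of 0.0501, and leaving out wild-type replicates 1, 2 and 3 gave 0.0773, 0.101 and 0.0522. The difference itself ranged from -1.16 to -0.74 in these fits.

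The receptors for prostaglandin E2 lay on the other side. Ptger4, which encodes EP4, a receptor coupled to cyclic AMP, rose on both probe sets. The brighter read 11.23, 11.36 and 11.19 in knockout replicates 1, 2 and 3, against 10.93, 10.88 and 11.00 in wild-type replicates 1, 2 and 3, a difference of 0.32 (SE 0.07) or 1.25-fold (limma adjusted p = 0.0483). The dimmer read 8.05, 8.14 and 8.06 in knockout replicates 1, 2 and 3, against 7.54, 7.68 and 7.61 in wild-type replicates 1, 2 and 3, a difference of 0.48 (SE 0.07, limma adjusted p = 0.0177). No knockout value on either probe set overlapped the wild-type values. The brighter probe set stood close to the threshold and lost its call when any single array was left out, with adjusted p from 0.0625 to 0.146 and differences from 0.27 to 0.35. Ptger2, which encodes EP2, also coupled to cyclic AMP, read 9.04, 9.15 and 9.19 in knockout replicates 1, 2 and 3, against 9.0, 8.78 and 8.90 in wild-type replicates 1, 2 and 3. Its groups were separated by a narrow gap, and its difference of 0.24 (SE 0.08, limma adjusted p = 0.137) did not pass.

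**Figure D2:**
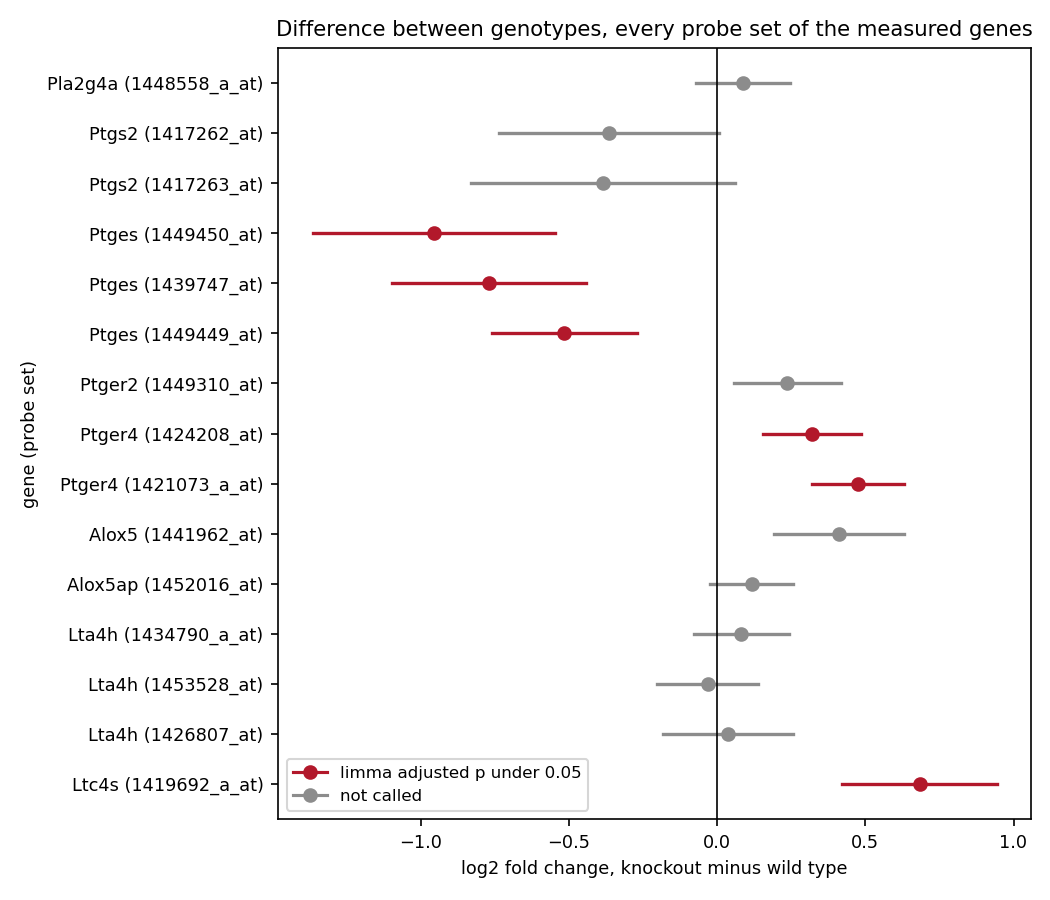
Log2 fold change (knockout minus wild type) of all 15 probe sets of the 9 genes, with 95% intervals from limma; red marks a limma adjusted p under 0.05 over all probe sets. The 3 Ptges probe sets lie between -0.96 and -0.52, and the 2 of Ptger4 and the 1 of Ltc4s between 0.32 and 0.68.

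In the leukotriene branch all 4 genes had a higher mean in knockout cells, and Ltc4s rose. This synthase joins glutathione to leukotriene A4. Its probe set read 7.06, 7.49 and 7.19 in knockout replicates 1, 2 and 3, against 6.56, 6.44 and 6.69 in wild-type replicates 1, 2 and 3. The genotypes did not overlap, and knockout replicate 2, the lowest array for Ptges, was the highest for Ltc4s. The mean was 7.25 ± 0.22 in knockout and 6.56 ± 0.13 in wild type (SD, n = 3 each), a difference of 0.68 (SE 0.12) or 1.61-fold (limma adjusted p = 0.0223). The call held without knockout replicate 3 or wild-type replicate 3. It was lost without knockout replicate 1 (limma adjusted p = 0.0681), knockout replicate 2 (0.0501), wild-type replicate 1 (0.0574) and wild-type replicate 2 (0.0867), while the difference stayed between 0.56 and 0.77.

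Alox5, the enzyme that commits arachidonic acid to leukotrienes, missed the threshold by a small margin. It read 8.57, 8.74 and 8.70 in knockout replicates 1, 2 and 3, against 8.29, 8.07 and 8.42 in wild-type replicates 1, 2 and 3. All knockout values lay above all wild-type values, with a difference of 0.41 (SE 0.10, 95% interval 0.19 to 0.63, limma adjusted p = 0.0536). It passed with trended and robust variances (limma adjusted p = 0.021), with above-median probe sets only (0.0369), with all genes tested as averages over their probe sets (0.0381; Alox5 itself has 1), with median centring (0.0483) and without wild-type replicate 3 (0.049). It did not pass in the other 10 of 15 alternatives, among them the fits without each of the other 5 arrays (0.103 to 0.159), the replicate block (0.0935) and the floor on low values (0.16).

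Alox5ap, the membrane protein that presents arachidonic acid to 5-lipoxygenase, had a small difference. It read 12.90, 12.85 and 12.90 in knockout replicates 1, 2 and 3, against 12.76, 12.74 and 12.79 in wild-type replicates 1, 2 and 3. These tight groups did not overlap, but the difference of 0.12 (SE 0.06, 95% interval -0.02 to 0.26, limma adjusted p = 0.337) did not pass. Lta4h, the hydrolase that makes leukotriene B4, overlapped between genotypes on each of its 3 probe sets. The brightest read 10.75, 10.91 and 10.81 in knockout replicates 1, 2 and 3, against 10.76, 10.67 and 10.79 in wild-type replicates 1, 2 and 3, a difference of 0.08 (95% interval -0.08 to 0.24, limma adjusted p = 0.58). The remaining probe sets gave differences of -0.03 and 0.04, at intensities of 4.86 to 6.01, around or under the median of all values (5.63), where intensities say less about a transcript. Within the leukotriene branch the step to leukotriene C4 thus had a difference of 0.68 (95% interval 0.42 to 0.94) and the step to leukotriene B4 one of 0.08, and whether these differ was not tested.

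To set the branches side by side on each array, the deviation of each gene from its mean over the 6 arrays was averaged over a branch, with no test. The leukotriene genes lay at 0.08, 0.25 and 0.15 on knockout replicates 1, 2 and 3, against -0.15, -0.26 and -0.07 on wild-type replicates 1, 2 and 3. Ptgs2 and Ptges together lay at -0.26, -0.72 and -0.02 on knockout replicates 1, 2 and 3, against 0.56, 0.19 and 0.24 on wild-type replicates 1, 2 and 3. The receptors Ptger2 and Ptger4 lay at 0.08, 0.20 and 0.13 on knockout replicates 1, 2 and 3, against -0.09, -0.22 and -0.10 on wild-type replicates 1, 2 and 3. The receptors thus lay on the side of the leukotriene genes and opposite to the prostaglandin enzymes. The distance of the leukotriene from the whole prostaglandin branch was 0.17, 0.51 and 0.10 on knockout replicates 1, 2 and 3, against -0.38, -0.25 and -0.14 on wild-type replicates 1, 2 and 3. Its mean was 0.26 ± 0.22 in knockout and -0.26 ± 0.12 in wild type (SD, n = 3 each). With deviations taken from the mean over the 6 arrays, 3 per genotype, the genotype means are equal and opposite by construction. Their opposite signs are therefore no result. With the prostaglandin enzymes alone, a choice made after seeing the data, the knockout mean exceeded the wild-type mean by 0.98 in place of 0.51. Knockout replicate 2 had the widest distance and knockout replicate 3 the narrowest of their genotype on both measures. The largest differences within the branches were those of Ptges (-0.96) and Ltc4s (0.68), and no distance without these genes was computed. With the median of the members of each whole branch in place of the mean, the difference between genotypes was 0.37 in place of 0.51.

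**Figure D3:**
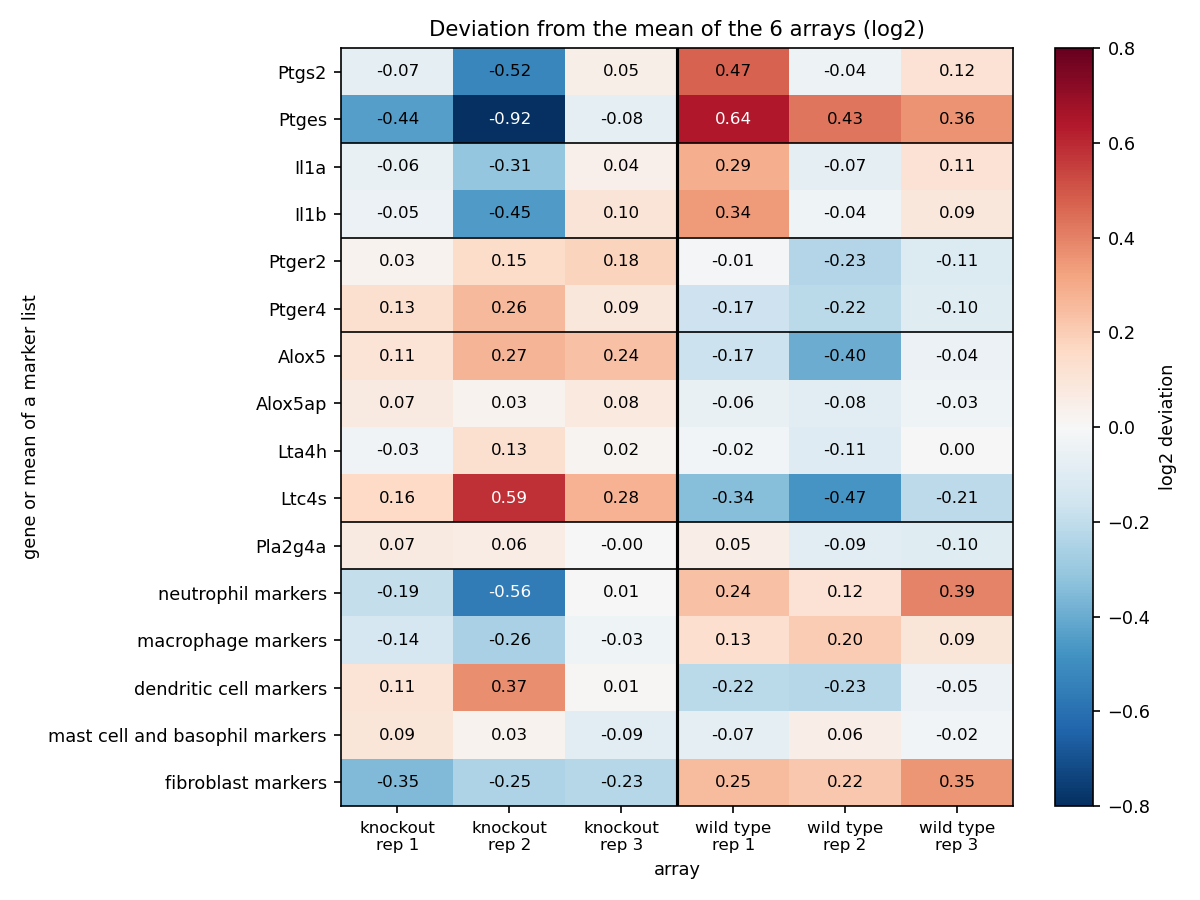
Log2 deviation of each gene, or of the mean of a marker list, from its mean over the 6 arrays (columns, knockout replicates left of wild-type replicates). Ptgs2, Ptges, Il1a, Il1b and the neutrophil and macrophage markers are lowest on knockout replicate 2, where Ltc4s, Ptger4, Alox5 and the dendritic cell markers are highest.

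The arrays could hold RNA of several cell types, and fewer cells of a type cannot be told apart from less RNA per cell. Macrophage markers had bright probe sets, with a mean log2 intensity of 11.53 to 11.75 over 7 measured genes of 8 in knockout, against 11.88 to 11.99 in wild type, and none of the 7 lay under the median of all values. Of these, 2 fell, the Fc receptor Fcgr1 (-1.13) and the clearance receptor Mertk (-0.46). Over all genes, 2.85% were higher and 2.05% lower by the adjusted rule, the shares to set beside each count of called markers. Neutrophil markers, 9 measured of 11, averaged 8.80 to 9.37 in knockout and 9.48 to 9.76 in wild type, with 0 called. At an unadjusted p under 0.05 in limma 7 of the 9 were lower and 1 was higher, where 8.15% of all genes were lower and 15.2% higher. Their deviations were -0.19, -0.56 and 0.01 on knockout replicates 1, 2 and 3, against 0.24, 0.12 and 0.39 on wild-type replicates 1, 2 and 3. Among the knockout arrays these markers had the order of Ptges and Ptgs2, and so did the macrophage markers. The macrophage deviations were -0.14, -0.26 and -0.03 on knockout replicates 1, 2 and 3, against 0.13, 0.20 and 0.09 on wild-type replicates 1, 2 and 3. Among the wild-type arrays neither list had the order of either gene. Dendritic cell markers, 8 measured of 9, averaged 7.43 to 7.79 in knockout and 7.19 to 7.37 in wild type, with the transcription factor Batf3 (0.53) called higher. Their deviations were 0.11, 0.37 and 0.01 on knockout replicates 1, 2 and 3, against -0.22, -0.23 and -0.05 on wild-type replicates 1, 2 and 3. Among the knockout arrays this was the reverse of the order of Ptges and Ptgs2, but among the wild-type arrays it was the reverse of neither. Fibroblast markers, all 8 measured, averaged 4.94 to 5.07 in knockout and 5.51 to 5.65 in wild type, with 3 called lower. Mast cells, basophils and eosinophils are known to make leukotriene C4. Of the mast cell and basophil list 10 of 11 were measured, 5 of them under the median of all values, and the list averaged 5.57 to 5.75 in knockout and 5.59 to 5.71 in wild type. The IgE receptor chains Fcer1a (3.86 in knockout, 3.72 in wild type) and Ms4a2 (4.19 in knockout, 4.21 in wild type) had probe sets below the median of all values. Above that median lay Gata2 (7.74 in knockout, 7.64 in wild type), Cpa3 (6.36 in knockout, 6.25 in wild type) and Mcpt8 (6.07 in knockout, 6.17 in wild type). The genotypes overlapped for Gata2, Cpa3 and Mcpt8. The histamine-forming enzyme Hdc was the sole called gene of that list and was lower (-0.40). Kit had the largest difference of the list, 0.59, and was not called (limma adjusted p = 0.0669). Its knockout values (7.34, 7.83 and 7.57) all lay above its wild-type values (6.69, 7.17 and 7.11). By mean, 4 genes of the list were higher in knockout and 6 lower. Of the eosinophil list 5 of 7 were measured, 4 of them under the median of all values, and it averaged 4.61 to 4.74 in knockout and 4.54 to 4.70 in wild type. Its called gene Siglecf, which some macrophages also express, was higher (0.95), whereas the other 4 measured, Il5ra (-0.17), Epx (-0.19), Ccr3 (-0.17) and Prg2 (-0.04), were not called and had lower means in knockout. Of 6 platelet, 7 tumour epithelium and 6 lymphocyte markers measured, 0 were called, with median differences of -0.05, -0.04 and -0.08. The part of these marker shifts in the differences of Ptges, Ltc4s and Ptger4 was not tested.

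The genes most like Ptgs2 across the 6 arrays, by Pearson's r of log2 values among 11284 other genes brighter than the median, were Il1b (r = 0.990), Il1a (r = 0.990) and Gnb1 (r = 0.988). Il1b, which encodes interleukin-1 beta, read 13.01, 12.61 and 13.16 in knockout replicates 1, 2 and 3, against 13.40, 13.02 and 13.15 in wild-type replicates 1, 2 and 3. Like Ptgs2 it overlapped between genotypes and was lowest on knockout replicate 2 and highest on wild-type replicate 1. The genes most like Alox5 were Nsmce1 (r = 0.999), Zfp764 (r = 0.997) and Xpo7 (r = 0.997). These correlations rest on 6 arrays, share the genotype difference and are a description.

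Beyond the members, 65 of 72 other genes of eicosanoid release, synthesis, transport, sensing and breakdown were measured. Of these 4 rose, 0 fell and 61 did not pass, where 2.85% of all genes were higher and 2.05% lower by the adjusted rule. At an unadjusted p under 0.05 in limma, 10 of the 65 were higher and 4 lower. These unadjusted counts were near the shares of all genes by that rule, 15.2% higher and 8.15% lower. The median difference was 0.01, as over all genes. The 4 that rose were Ptger3, Abcc4, Mgst2 and Cyp4f16.

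**Figure D4:**
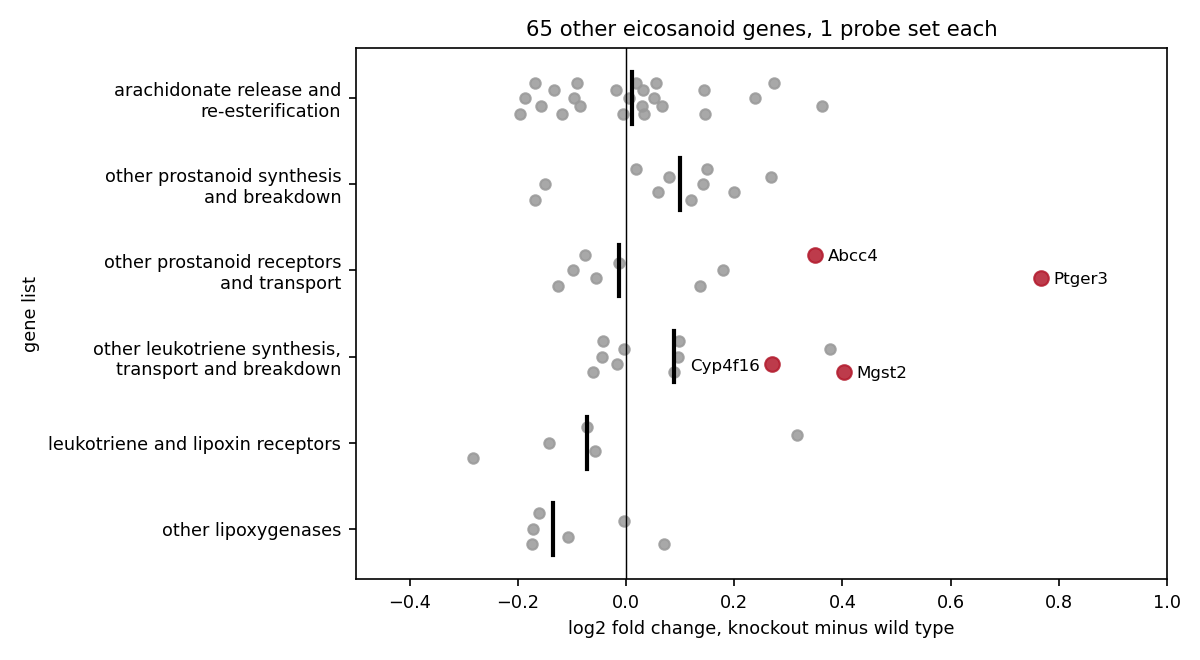
Log2 fold change (knockout minus wild type) of the 65 other eicosanoid genes by list, 1 point per gene; black bars are list medians and red points have a limma adjusted p under 0.05. The 4 red points, Ptger3, Abcc4, Mgst2 and Cyp4f16, lie between 0.27 and 0.77, and the list medians lie between -0.13 and 0.10.

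Among 9 other prostanoid receptors and transporters, 2 rose and 7 did not pass (median -0.01), where 2.85% of all genes rose. Ptger3, which encodes EP3, a receptor that lowers cyclic AMP, read 4.97, 5.37 and 5.24 in knockout replicates 1, 2 and 3, against 4.41, 4.23 and 4.63 in wild-type replicates 1, 2 and 3. Its groups did not overlap, with a difference of 0.77 (SE 0.13, limma adjusted p = 0.0217), but all values lay under the median of all values and its other probe set lay 0.03 from wild type. Abcc4, an exporter of prostaglandin E2 and other organic anions, read 8.16, 8.28 and 8.35 in knockout replicates 1, 2 and 3, against 7.93, 7.82 and 7.99 in wild-type replicates 1, 2 and 3, a difference of 0.35 (SE 0.08, limma adjusted p = 0.0476).

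On the leukotriene side, 2 of 11 other synthesis, transport and breakdown genes rose, 0 fell and 9 did not pass (median 0.09). Of all genes, 2.85% rose and 2.05% fell. Mgst2, a microsomal glutathione transferase related to Ltc4s that can also form leukotriene C4, read 10.24, 10.31 and 10.25 in knockout replicates 1, 2 and 3, against 9.79, 9.89 and 9.91 in wild-type replicates 1, 2 and 3. The groups were well apart, with a difference of 0.40 (SE 0.07, limma adjusted p = 0.022). Ltc4s and Mgst2, which share that product, thus both rose. Their relative Mgst3 missed the threshold on its brighter probe set (0.38, SE 0.09, limma adjusted p = 0.0544), and its other probe set lay 0.04 from wild type (0.828). Mgst1, of the same name family and list, lay -0.02 from wild type on its brighter probe set (limma adjusted p = 0.919). Cyp4f16, a cytochrome of the family that oxidises leukotriene B4, rose by 0.27 (SE 0.06, limma adjusted p = 0.0492). Its dimmer probe set lay 0.29 from wild type and was not called (limma adjusted p = 0.0701). Of the same family, Cyp4f18 (0.10, limma adjusted p = 0.596) and Cyp4f13 (-0.06, 0.803) did not pass on their brightest probe sets. Without each array in turn, Mgst2 was called without knockout replicate 3 or wild-type replicate 3 (limma adjusted p = 0.0358 and 0.0439) and otherwise lay at 0.0588 to 0.0798. Ptger3 was called without the same arrays (0.0404 and 0.0344) and otherwise lay at 0.0568 to 0.0806, and Abcc4 and Cyp4f16 lost their calls without any array (0.0685 to 0.141).

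In the other lists no gene passed on its brightest probe set. Over all genes, 2.85% were higher and 2.05% lower by the adjusted rule. At an unadjusted p under 0.05 in limma, 15.2% of all genes were higher and 8.15% lower, the shares to set beside the counts below. Of 24 genes of arachidonate release and re-esterification, 0 rose and 0 fell, with 2 higher and 3 lower at an unadjusted p under 0.05 (median 0.01). The nearest were the lysosomal phospholipase Pla2g15 (0.36, limma adjusted p = 0.0604) and the acyltransferase Lpcat1 (0.27, 0.115 on its brightest probe set), followed by Plaat3 (-0.20, 0.157) and Pla2g4e (-0.19, 0.218). Of the other 4 Lpcat1 probe sets, 1 was called higher, with a difference of 0.65 (SE 0.10, limma adjusted p = 0.0205), and the others lay at 0.32 (0.0679), 0.07 (0.77) and -0.02 (0.944). Of 10 genes of other prostanoid synthesis and breakdown, 0 passed, with 1 higher at an unadjusted p under 0.05 (median 0.10). They included the prostamide synthase Prxl2b (0.27, limma adjusted p = 0.0858), the prostaglandin reductase Ptgr2 (0.14, 0.258), the carbonyl reductase Cbr1 (0.15, 0.265) and the thromboxane synthase Tbxas1 (0.12, 0.331). Of 5 leukotriene and lipoxin receptors, 0 passed, with 1 higher at an unadjusted p under 0.05 (median -0.07). Ltb4r1, the high-affinity receptor for leukotriene B4, lay 0.32 from wild type (limma adjusted p = 0.116), the formyl peptide receptor Fpr2, which also binds lipoxin, -0.28 (0.271), Oxgr1 -0.14 (0.357) and Cysltr2, a receptor for cysteinyl leukotrienes, -0.06 (0.763). Of 6 other lipoxygenases, 0 passed, with 1 lower at an unadjusted p under 0.05 (median -0.13), and 4 of the 6 lay under the median of all values. The nearest to passing were Aloxe3 (-0.16, limma adjusted p = 0.217), Alox12b (-0.17, 0.259), Alox15 (-0.17, 0.34) and Alox12 (-0.11, 0.531).

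Arrays were more alike within a genotype than between genotypes. Fabp5, the targeted gene, read 8.27 ± 0.13 in knockout and 14.44 ± 0.03 in wild type on its brighter probe set (SD, n = 3 each). Arrays of the same genotype correlated at 0.9965 to 0.9977 and arrays of different genotypes at 0.9914 to 0.9961 (Pearson's r over probe sets, no independent replicates), and array medians lay between 5.60 and 5.64. With 3 arrays per genotype, the smallest two-sided p of a permutation test is 0.1.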

How the data were processed

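RNA from 3 knockout and 3 wild-type cultures was hybridised to Affymetrix 3' arrays. The deposited table holds 1 log2 intensity per probe set and array, a scale read from the range of the values. Per the submitters' processing notes, RMA, GCRMA 2.30.0, affy 1.36.1 and limma 3.14.4 were used, in no stated role. The sources used here do not say whether RMA or GCRMA made the values, and differences of dim probe sets depend on that choice. No detection calls were used. Intensities of different probe sets are not on 1 scale of transcript level, so the choice of the brightest probe set, the median of all values and the levels of marker lists describe brightness on the arrays only.

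After 64 control probe sets were left out, 45037 probe sets were fitted in limma 3.58.1 (R 4.3.3; lmFit and eBayes, genotype alone), p-values being adjusted over all of them by Benjamini-Hochberg, with a threshold of 0.05. The fit was run on simulated data with known inserted changes, which checks the code and not the calls reported here. Standard errors and intervals are limma's moderated ones. Names came from the platform annotation, updated by gene identifier to RefSeq (34945 probe sets with 1 gene, 932 with several, 9160 unnamed), and the brightest probe set stood for its gene. Figures used matplotlib 3.10.9 in Python 3.11.15.

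The members, pathway lists and marker lists were chosen with earlier results of these data known. The text names the members, the called genes of each list (or up to 4 with the smallest p) and the 3 genes most like Ptgs2 and Alox5. Marker genes, Mgst1, Mgst3, Cyp4f13 and Cyp4f18 were named after their values were seen. The alternatives were other normalizations, filters, floors, variance models, weights, a replicate block, other summaries of a gene, another threshold and leaving out each array.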

Additional observations from a re-analysis of the deposited data

How the results depend on the processing

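All 9 member genes kept their direction in all 15 alternative fits, and of the 135 resulting values 108 stayed on their side of the threshold, 22 (of Ptges, Ptger4 and Ltc4s) lost the call and 5 (of Alox5) gained it. With the replicate block, which the sources do not tie to a shared animal or day and which same-numbered arrays did not bear out (correlations of deviations of -0.06, -0.04 and -0.13), 0 members were called, Ptges at a limma adjusted p of 0.0582, Ltc4s at 0.0611 and Ptger4 at 0.11, 0 other pathway genes were called, and 49 probe sets in all were higher and 43 lower, in place of 927 and 764. A floor at the 20th percentile (4.07) likewise left 0 members and 0 other pathway genes called, with 52 probe sets higher and 19 lower in all. All member values lay above this floor, so the member differences were unchanged by it. Their adjusted p could move only through the other probe sets, by the shared variance estimate and the adjustment. The size of each part was not tested. Quantile normalization left 1 member higher, since Ptger4 missed the threshold (limma adjusted p = 0.0527), and 2 other pathway genes. Trended and robust variances called 7 other pathway genes and 2050 probe sets higher, and above-median probe sets alone gave 1715 higher. At an adjusted p under 0.1, 7 other pathway genes were higher, and 2259 probe sets were higher and 1516 lower. Leaving out each array in turn gave 0 to 2 member genes higher and 0 to 1 lower, 0 to 3 member probe sets higher and 0 to 3 lower, 0 to 3 other pathway genes higher, 24 to 618 probe sets higher and 16 to 742 lower, so these calls depend on few arrays. The difference between genotypes in the distance of the branches was 0.39 to 0.60 in those fits. With the prostaglandin enzymes alone, chosen after seeing the data, that difference was 0.98, and the distance was 0.33, 0.97 and 0.17 on knockout replicates 1, 2 and 3, against -0.71, -0.46 and -0.31 on wild-type replicates 1, 2 and 3. With the median of the members in place of the mean it was -0.12 on wild-type replicate 2.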
